A study of Homo sapiens with 2 samples.

Results

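The SLC1 family consists of 7 membrane transporters, 5 for glutamate and aspartate and 2 for neutral amino acids, and it was described here together with glutamine synthetase, GLUL, in SW480 cells made to carry TFAP2E. These 8 genes were found by their symbols in the platform's probe annotation, where they had 10 probe sets, among 18417 genes with a probe set of their own. The family was chosen by the measured difference of 1 of its members, SLC1A2, so that the values of that gene are given as a description. SW480 is an established human colorectal adenocarcinoma line. The TFAP2E-labelled array holds RNA of SW480 stably transfected with the TFAP2E coding sequence in the pTarget expression vector, and the empty vector array holds RNA of SW480 carrying that vector without an insert. Both were kept under Geneticin, and clones were picked singly and checked for TFAP2E. The labels do not say how many clones an array stands for, so that a difference between clones and an effect of TFAP2E cannot be told apart.

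Values are log2 expression values after RMA, the authors' normalization, and a difference is the TFAP2E-labelled array minus its empty vector counterpart, so that 1 on this scale is 2-fold. Each group has 1 array. No value has a replicate, no test or error can be given, and a level of 1 probe set cannot be set against that of another. A gene was compared when its higher value reached 5.55, the median over every probe set, which left 11548 genes. Their differences had a median of 0.04, and 95% of them lay between -0.37 and 0.47. TFAP2E itself read 6.81 on the TFAP2E-labelled array, against 6.77 with the empty vector. These values do not show the introduced gene, and all directions rest on the labels.

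The glutamate transporters of the family, known as EAATs, carry glutamate or aspartate into the cell against a steep gradient by letting sodium ions and a proton in and a potassium ion out. In the brain they clear glutamate from synapses, and astrocytes turn much of it into glutamine through GLUL. The other branch, the ASCT proteins, swaps neutral amino acids such as alanine, serine and glutamine across the membrane. Many epithelial and cancer cells take up glutamine through it.

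SLC1A2 was the member that stood out. It encodes EAAT2, also called GLT-1, the main glutamate transporter of astrocytes. The value was 6.78 on the TFAP2E-labelled array, against 5.50 with the empty vector, a difference of 1.28 or 2.44-fold. This was the difference ranked 4 from the highest among the 11548 genes. In RNA of whole cultures, more cells with the transcript and more transcript per cell cannot be told apart.

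The empty vector value of SLC1A2 lay 0.05 below the filter value of 5.55. Counted from the filter value, which marks no limit of detection, the gene was 2.35-fold higher. The spread of differences depends on the level, and therefore each probe set was also placed beside the 500 named probe sets nearest to it in mean value. Around SLC1A2 the central 95% of them ran from -0.39 to 0.51, and 0 of the 500 had a difference as large in either direction. Genes past 2-fold made up 0.199% of all genes compared, with 10 higher (0.0866%) and 13 lower (0.113%). SLC1A2 was the only member past 2-fold among the 5 that were compared. The same contrast chose the family through SLC1A2. Nothing is therefore read from that count, or from the place of SLC1A2 beside the 500 probe sets. On either side of the 2-fold mark lay SPTSSB, a subunit of serine palmitoyltransferase, at 1.02, and DDIT4, an inhibitor of mTORC1 signalling, at 0.98.

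**Figure D1:**
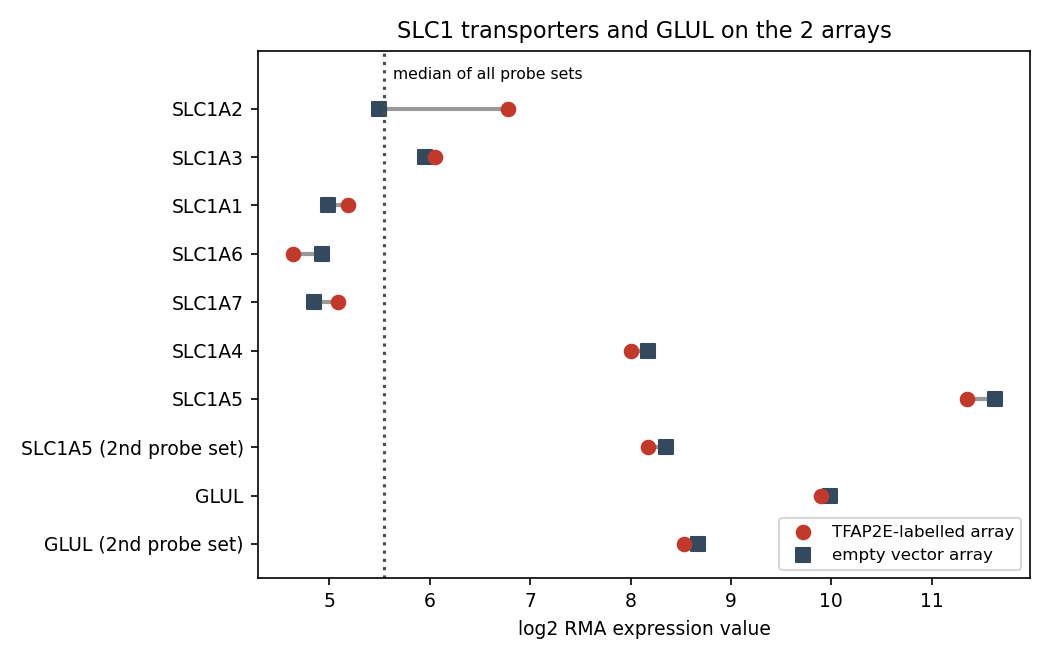
Log2 RMA values (x axis) of the 10 probe sets of the SLC1 family and GLUL (rows), with circles for the TFAP2E-labelled array, squares for the empty vector array, and a dotted line at 5.55, the median of all probe sets. SLC1A2 is the only row with a wide gap, 6.78 against 5.50, and SLC1A1, SLC1A6 and SLC1A7 lie left of the line on both arrays; rows should not be ranked by level, since probe sets differ in brightness.

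The remaining glutamate transporters differed little. SLC1A3 encodes EAAT1, or GLAST, the second transporter of astrocytes and other glia. It read 6.05 on the TFAP2E-labelled array, against 5.96 with the empty vector, a difference of 0.09, and 319 of the 500 probe sets nearest in level differed by as much or more. SLC1A1 encodes EAAT3, the carrier of neurons and of kidney and intestinal epithelium. Its probe set was below the filter on both arrays, at 5.18 on the TFAP2E-labelled array, against 4.98 with the empty vector.

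SLC1A6 encodes EAAT4, the transporter of cerebellar Purkinje cells. It read 4.64 on the TFAP2E-labelled array, against 4.93 with the empty vector. SLC1A7 encodes EAAT5, found mostly in the retina, and it read 5.08 on the TFAP2E-labelled array, against 4.85 with the empty vector. Both were thus below the filter on each array, like SLC1A1. Their differences were 0.20 for SLC1A1, -0.28 for SLC1A6 and 0.23 for SLC1A7, each inside the central 95% of the 500 probe sets nearest in level.

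The neutral amino acid exchangers both read lower on the TFAP2E-labelled array. SLC1A5 encodes ASCT2, the glutamine carrier of many cancer cells. The brighter probe set gave 11.4 on the TFAP2E-labelled array, against 11.6 with the empty vector, a difference of -0.28, or 1.21-fold lower. The dimmer one read 8.18 on the TFAP2E-labelled array, against 8.35 with the empty vector, a difference of -0.18. Both probe sets of SLC1A5 therefore pointed the same way.

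SLC1A4 encodes ASCT1, which carries alanine, serine, cysteine and threonine. It read 8.003 on the TFAP2E-labelled array, against 8.178 with the empty vector, a difference of -0.17, or 1.13-fold lower. Of all genes compared, 12.3% had a lower difference than SLC1A4 and 5.38% a lower one than SLC1A5. Around SLC1A5 the central 95% of probe sets of like level ran from -0.31 to 0.38, and around SLC1A4 from -0.31 to 0.43, so that both genes lay inside. These are differences of a size that many genes show between the arrays.

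GLUL encodes glutamine synthetase, which joins ammonia to glutamate and so makes what SLC1A5 otherwise brings in. The brighter probe set gave 9.90 on the TFAP2E-labelled array, against 9.99 with the empty vector, a difference of -0.09. The dimmer one read 8.53 on the TFAP2E-labelled array, against 8.67 with the empty vector, a difference of -0.15. Both probe sets are annotated to the same gene, and both lay inside the central 95% at their level.

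Set against its family, SLC1A2 thus differed from the other 6 transporters in size. Their differences ran from -0.28 to 0.23, with 3 higher and 3 lower on the TFAP2E-labelled array and a median of -0.04 when those below the filter are included. Of the 3 that passed the filter besides SLC1A2, 1 was higher and 2 were lower, with a median of -0.17. Of the 5 glutamate transporters, filtered or not, 4 read higher on the TFAP2E-labelled array, and SLC1A6 read lower. Among those 4 are SLC1A2, which chose the family, and SLC1A1 and SLC1A7, which lay below the filter on both arrays. Of all 18417 genes, filtered or not, 10002 read higher. All 10 probe sets kept their sign when the arrays were centred on their medians, quantile normalized again, or freed of the loess trend of difference on level.

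**Figure D2:**
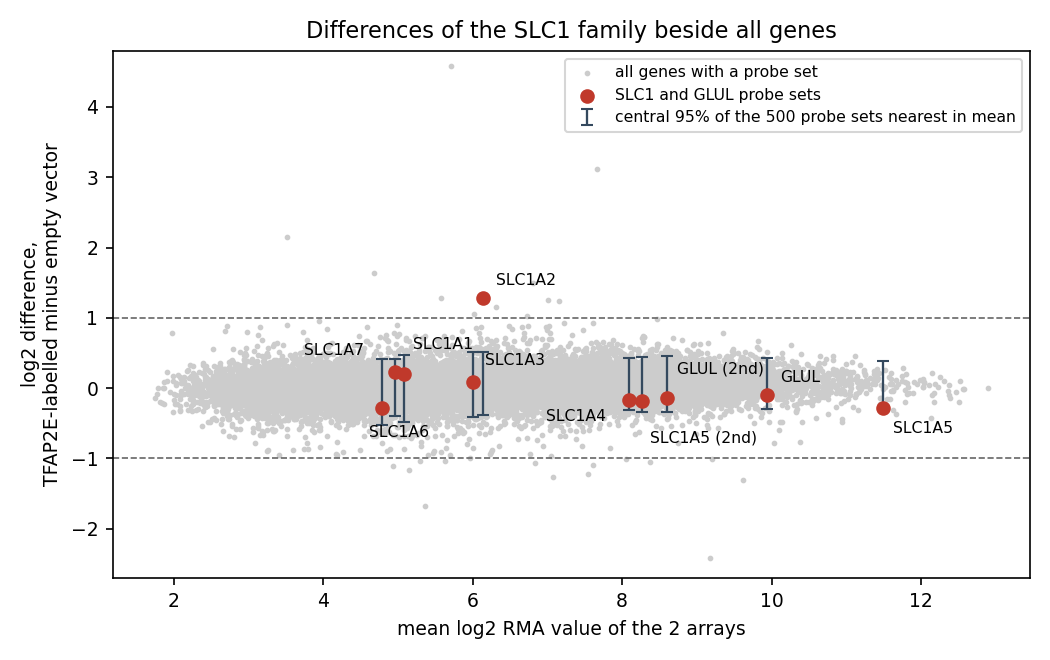
Log2 difference, TFAP2E-labelled minus empty vector (y axis), against the mean log2 value of both arrays (x axis), with grey points for all genes with a probe set, red points for the 10 probe sets of the family and GLUL, vertical bars for the central 95% of the 500 probe sets nearest in mean, and dashed lines at 2-fold. SLC1A2, whose difference of 1.28 chose the family, lies far above its bar, and the other 9 probe sets lie within theirs.

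AP-2 proteins such as TFAP2E bind GC-rich sites whose textbook form is GCCNNNGGC. ATF4, which raises amino acid transporters when amino acids run short, binds with C/EBP partners at elements holding TGATGCAA. Both motifs were searched on both strands in the 250 bases before each annotated transcript start, in promoter windows from RefSeq (GRCh38.p14). Of the 8 members, 7 matched, all but SLC1A2, with 14 windows in all. GCCNNNGGC occurred in 5 of these 14 windows, belonging to SLC1A4, SLC1A5 and GLUL, and in 19.8% of all 35116 windows. TGATGCAA occurred in 2 of the 14, belonging to SLC1A3 and SLC1A5, and in 0.772% of all windows. The windows with GCCNNNGGC held 59.6% to 79.6% G or C, and the others 43.2% to 76.0%.

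The matched stretches are shown because they are all the matches found in the members to the motif of the introduced factor or that of ATF4. The 3 genes with GCCNNNGGC, SLC1A4, SLC1A5 and GLUL, all read lower on the TFAP2E-labelled array. SLC1A6 read lower too, and its 2 windows held neither motif. TGATGCAA stood before SLC1A3, which read higher, and before SLC1A5, which read lower. Whether either motif bears on the differences was not tested. Each line gives 10 bases on either side, 5′ to 3′ along the gene's strand, with the match in capitals.
SLC1A4, chr2:64989328-64989356, plus strand: gcgggctgggGCCGCTGGCgcgccctcct
SLC1A5, chr19:46787446-46787474, minus strand: ctccgtgggaGCCGCGGGCagtgccgaaa
SLC1A5, chr19:46784924-46784952, minus strand: tactctcagaGCCGCTGGCaggccctcca
SLC1A5, chr19:46784843-46784871, minus strand: tggagctgagGCCCGGGGCgacctgccct
GLUL, chr1:182391817-182391845, minus strand: accgggggcgGCCCCGGGCcgcggataaa
GLUL, chr1:182391439-182391467, minus strand: ggtggggcgcGCCCTTGGCcaggctctgg
SLC1A5, chr19:46784894-46784921, minus strand: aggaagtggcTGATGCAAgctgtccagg
SLC1A3, chr5:36596358-36596385, plus strand: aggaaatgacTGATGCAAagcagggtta

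The matches in SLC1A4 and SLC1A5 all lie before starts inside the annotated gene. In SLC1A4 the match ends 52 bases before its start. The SLC1A5 start nearest the 3′ end of the gene has GCCNNNGGC 119 and 38 bases before it and TGATGCAA 89 bases before it, while the window of the most upstream SLC1A5 start held neither motif. In GLUL, 1 match ends 36 bases before the most upstream start. A match is a run of letters and not a measured binding site, and which starts SW480 cells use was not measured.

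Genes beside SLC1A2 on the chromosome had smaller differences than SLC1A2, which was chosen for the size of its own. RefSeq (GRCh38.p14) was used for gene order alone. The 5 genes with a probe set on one side are CD44, PDHX, APIP, EHF and ELF5, and those on the other are PAMR1, FJX1, TRIM44, LDLRAD3 and COMMD9. ELF5 and PAMR1 were below the filter. The 8 compared had a median difference of 0.15, beside 0.04 over all genes compared. Of the 8, 0 passed 2-fold, and of all genes compared 0.199%, so that nothing is read from that count.

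CD44, a hyaluronan receptor and the next gene on one side, read 9.26 on the TFAP2E-labelled array, against 9.20 with the empty vector. The epithelial ETS factor EHF had the highest difference of the 8, 0.36, and TRIM44 the lowest, -0.02. The methionine salvage enzyme APIP (0.30) and the COMM domain gene COMMD9 (0.28) were also higher, so that 7 of the 8 read higher on the TFAP2E-labelled array. Around SLC1A4, 8 of 9 compared neighbours were higher and 1 was lower, with a median of 0.12. Around SLC1A5, 6 of 9 were higher and 3 lower, with a median of 0.03, where 59.2% of all genes compared read higher.

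**Figure D3:**
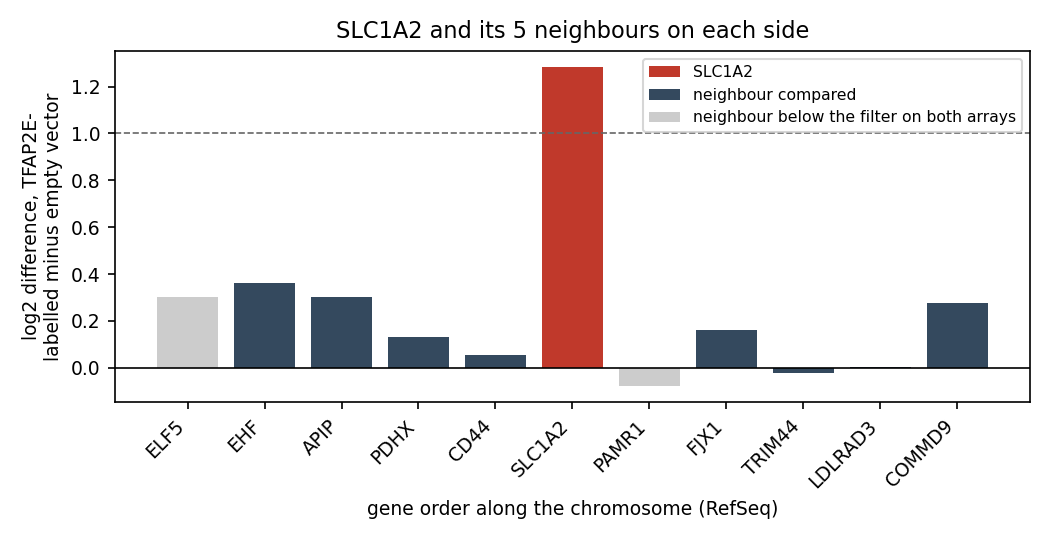
Log2 difference, TFAP2E-labelled minus empty vector (y axis), of SLC1A2 and the 5 genes with a probe set on each side of it, in chromosomal order (x axis), with neighbours below the filter on both arrays in light grey and a dashed line at 2-fold. SLC1A2 reaches 1.28, and the highest neighbour, EHF, 0.36.

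The genes whose pair of values lay nearest to that of SLC1A2, by Euclidean distance over 2 arrays, were the small nucleolar RNA SNORA22 (distance 0.24), the spliceosomal RNA RNU5D-1 (0.27) and PIP5K1B, a phosphatidylinositol phosphate kinase (0.29). PIP5K1B read 6.55 on the TFAP2E-labelled array, against 5.67 with the empty vector. With 2 arrays this likeness says only that the values are close.

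Enzymes that make or use glutamate and glutamine read mostly higher on the TFAP2E-labelled array. Of 40 listed, 31 had a probe set of their own and 28 were compared. Of these 28, 22 were higher and 5 lower with a median of 0.10, beside 59.2% higher and a median of 0.04 over all genes. Under the other scalings, 52.2% to 65.4% of all genes read higher, and 22 or 23 of these enzymes. None passed 2-fold.

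Asparagine synthetase, ASNS, which spends glutamine to make asparagine, read 10.2 on the TFAP2E-labelled array, against 9.48 with the empty vector, a difference of 0.68. GCLC, the catalytic subunit of the enzyme that commits glutamate to glutathione, read 8.68 on the TFAP2E-labelled array, against 8.12 with the empty vector, a difference of 0.55. These were the highest of the list. The lowest were GAD1, which turns glutamate into GABA, at -0.29, and the mitochondrial proline breakdown enzyme ALDH4A1 at -0.11. The cytosolic aspartate aminotransferase GOT1, named after its value was seen, differed by 0.35.

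Other amino acid transporters of the plasma membrane split by sign. Of 32 listed, 19 were compared, of which 10 were higher and 8 lower on the TFAP2E-labelled array with a median of 0.00, and 0 passed 2-fold. The balance turned to 8 higher and 11 lower after a second quantile normalization and after removal of the loess trend. SLC7A7, a carrier that exports cationic amino acids in exchange for neutral ones, read 7.18 on the TFAP2E-labelled array, against 6.29 with the empty vector. Its difference of 0.89 was the highest of the list.

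SLC7A11, which exports glutamate in exchange for cystine and so works against the uptake that EAATs perform, read 8.13 on the TFAP2E-labelled array, against 7.57 with the empty vector, a difference of 0.56. The lowest were the aromatic amino acid carrier SLC16A10 at -0.49 and SLC7A5 at -0.45. SLC7A5, or LAT1, trades intracellular glutamine for leucine, and read 10.7 on the TFAP2E-labelled array, against 11.2 with the empty vector. Its partner chain SLC3A2 differed by -0.10. Of sodium-coupled glutamine carriers, named after their values were seen, SLC38A1 differed by 0.00, SLC38A2 by 0.13 and SLC38A5 by 0.43.

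Carriers of glutamate and related amino acids in vesicles, lysosomes and mitochondria had differences from -0.27 to 0.26. Of 12 listed, 9 were compared, with 6 higher and 3 lower on the TFAP2E-labelled array and a median of 0.06. The balance was 5 to 4 after a second quantile normalization or removal of the loess trend. The mitochondrial aspartate-glutamate carrier SLC25A12 had the highest difference, 0.26, followed by the lysosomal sialic acid carrier SLC17A5 at 0.14. The lysosomal cystine exporter CTNS had the lowest, -0.27, followed by the lysosomal carrier SLC38A7 at -0.15.

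Glutamate receptors were mostly below the filter. Of 26 listed, 24 had a probe set of their own and 18 of those were dim on both arrays, beside 6869 of all 18417 genes. The 6 compared had 4 higher and 2 lower with a median of 0.10, and 0 passed 2-fold. Over all 24, dim ones included, the balance turned to 9 higher and 13 lower with a median of -0.03. The NMDA receptor subunit GRIN2D read 6.72 on the TFAP2E-labelled array, against 6.37 with the empty vector, and the kainate receptor subunit GRIK4 differed by 0.35. The metabotropic receptors GRM8 and GRM4 were lowest, at -0.45 and -0.24.

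Proteins described as partners or regulators of EAATs and ASCTs had differences from -0.16 to 0.25. Of 13 listed, 8 were compared, with 7 higher, 1 lower, a median of 0.09, and 0 past 2-fold. Over all genes compared, 59.2% were higher, with a median of 0.04. The balance was 6 to 2 after a second quantile normalization or removal of the loess trend. ARL6IP5, which holds back EAAT3 in the rat, read 9.57 on the TFAP2E-labelled array, against 9.32 with the empty vector, the highest difference at 0.25. The ubiquitin ligase NEDD4 followed at 0.13. ARHGEF11, a partner of EAAT4 in the rat, was lowest at -0.16, and the PDZ scaffold NHERF1 was next at 0.01.

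The ATF4 amino acid response was set beside the exchangers because SLC1A4 and SLC1A5 have been described as ATF4 targets. Of 30 listed genes, 28 were compared, with 26 higher and 2 lower on the TFAP2E-labelled array, a median of 0.24, and 0 past 2-fold. Beside this, 59.2% of all genes compared were higher, with a median of 0.04. The list had 27 of 29 higher after centring or a second quantile normalization, and 25 of 28 without the loess trend. After centring of the arrays 1 gene, DDIT4, passed 2-fold, at 1.01 against 0.98 in the deposited values. DDIT4 read 8.96 on the TFAP2E-labelled array, against 7.98 with the empty vector. CTH, the cystathionine lyase that makes cysteine, read 6.92 on the TFAP2E-labelled array, against 6.05 with the empty vector, a difference of 0.88. The 2 lower genes were SLC7A5 and SLC3A2. SLC1A4 at -0.17 and SLC1A5 at -0.28 thus had the sign of those 2 and not that of the rest of the list. That rest includes another amino acid transporter, SLC7A11, at 0.56. SLC7A5, SLC3A2, SLC7A11, ASNS and PSAT1 stand in 2 lists and are not separate evidence.

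**Figure D4:**
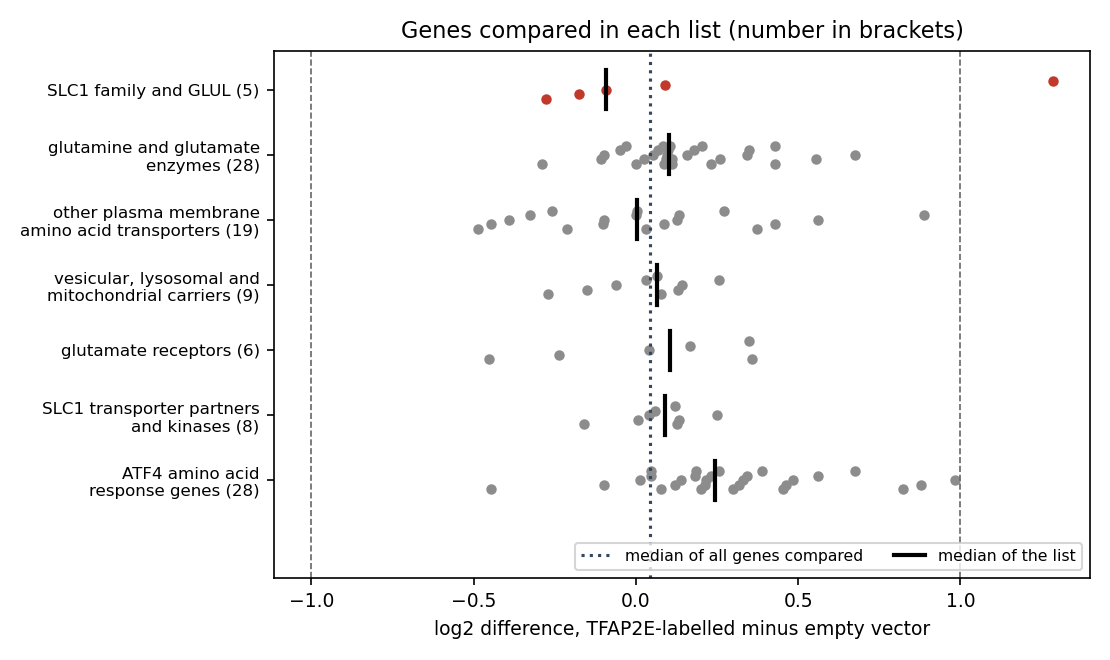
Log2 difference, TFAP2E-labelled minus empty vector (x axis), of the genes compared in each list (rows, number in brackets), with black bars at each list's median, a dotted line at the median of all genes, 0.04, and dashed lines at 2-fold. SLC1A2 is the only point past 2-fold, and the ATF4 list has the highest median, 0.24.

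Because SLC1A2, SLC1A3 and GLUL are known from astrocytes, glial and neuronal markers were read on the same arrays. Of 9 glial markers with a probe set, 8 were below the filter on both arrays, beside 6869 of all 18417 genes. GFAP, the intermediate filament of astrocytes, read 5.48 on the TFAP2E-labelled array, against 5.21 with the empty vector, and the water channel AQP4 read 3.40 on the TFAP2E-labelled array, against 3.53 with the empty vector. The exception was SOX10, a factor of neural crest and oligodendrocytes, with a difference of -0.28. Over the 9 glial markers the median level was 4.31 on the TFAP2E-labelled array, against 4.15 with the empty vector.

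Of 9 neuronal markers 4 were compared, with differences from -0.32 to 0.45. The lowest was RBFOX3, whose other probe sets, below the filter on both arrays, differed by 0.14 and -0.08. Of 10 fibroblast markers 3 passed the filter, as did 3 of 9 leukocyte and 3 of 10 endothelial ones. Over all genes, 11548 of 18417 passed it. Past 2-fold were 0 of all these markers, beside 0.199% of all genes compared, so that nothing is read from that count. The colorectal epithelial markers EPCAM (11.1, against 11.2 with the empty vector) and KRT18 (12.6 on both) were above the filter on both arrays, as were 8 of the 12 listed in all. KRT20, CDH17 and CEACAM5, markers of differentiated colonic cells, were below the filter. VIL1, or villin, an epithelial marker of the brush border, was the only marker past 2-fold, at 6.22 on the TFAP2E-labelled array, against 4.94 with the empty vector, and CDH1, or E-cadherin, differed by -0.71.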

How the data were processed

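RNA of 2 SW480 lines was measured on 1 Affymetrix array each. The deposited unit is log2 expression, 1 value a probe set. Per the submitters' processing notes, the authors used RMA. RMA corrects background, gives both arrays nearly the same distribution (here they differed by at most 0.158 at any rank) and summarises probes, so that a shift common to all transcripts would be hidden. For its version and the genome build, nothing is given in the sources used here. Of 33297 probe sets, 19460 had 1 gene symbol in the platform annotation, 1754 several and 12083 none. Symbols were updated through Entrez identifiers in RefSeq (GRCh38.p14), where 19429 were found. A gene with several probe sets (769 of 18417) was represented by the one with the highest mean. A gene was compared when its higher value reached 5.55. Identical values on both arrays occurred in 159 of the 11548 genes compared and count as neither higher nor lower. With 1 array a group, no test was run, and the number of arrays limits the precision. A fixed size of 2-fold was used.

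The members and lists were chosen with earlier results of these data known. Named genes are the 8 members, TFAP2E, the 2 highest and 2 lowest of each of 6 lists, the 5 neighbours of SLC1A2 on each side, the 3 genes nearest in pattern, and others where the text says so or gives a marker. Neighbours, motif matches and cell type markers (6 lists) were read from the tables. Alternatives were 3 scalings, 3 filters, a floor at the 20th percentile, averaging over a gene's probe sets, other thresholds and counting of all probe sets. The scripts (Python 3.11.15, pandas 2.3.3, statsmodels 0.14.6) were tested on simulated data.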

Additional observations from a re-analysis of the deposited data

How the results depend on the processing

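With 1 array a group, depth of signal limits most the members near or below the median of all probe sets, which are SLC1A1, SLC1A6, SLC1A7 and the empty vector value of SLC1A2. The difference of SLC1A2 lay between 1.27 and 1.31 in the 7 alternatives that kept it. The filter at the 75th percentile left the gene out. Filters, the floor and averaging cannot move the difference of a gene that has 1 probe set above the floor. For SLC1A2, therefore, only the 3 scalings could change the value. The median of the other SLC1 transporters compared lay between -0.23 and -0.04. The other SLC1 transporters, GLUL and TFAP2E kept their sign in each alternative that gave a value. Of those values, the ones under the filters and the floor could not move. Averaging over probe sets could move only SLC1A5 and GLUL, since the other genes have 1 probe set. All 56 values, including those that could not move, changed by less than 0.219, the standard deviation over genes. Medians of the 6 lists also moved by less than this, but that of the plasma membrane transporters reached -0.04 and that of glutamate receptors -0.03 with no filter. The 10 higher and 13 lower genes past 2-fold became 5 and 8 with the filter at the 75th percentile, 21 and 75 when all probe sets were counted, 103 and 70 at 1.5-fold, and 2 and 2 at 3-fold, as these settings test fewer or more features or move the threshold. The median of all genes, 0.04, was 0.07 after centring, 0.02 after quantile normalization and 0.01 without the loess trend. No paired analysis was possible because there is a single array a group.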
